A study of Mus musculus with 16 samples.

Results

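The genes described here are 6 tetraspanins of lymphocytes, Cd9, Cd37, Cd53, Cd63, Cd81 and Cd82, followed across 6 sorted mouse lymphocyte populations. Members were all probe sets that the platform annotation pairs with 1 of these symbols alone, which gave 6 of 8251 named genes and 8 of 12422 probe sets that are not controls: 3 for Cd82 and 1 for each other gene. The 16 single-colour oligonucleotide arrays, 1 per sample, form 3 pairs of an innate-like and an adaptive population. NKT cells of the spleen, sorted as NK1.1+ among CD3+CD4+ cells (n = 3), were set against the NK1.1- cells of the same gate (CD4T, n = 3), and peritoneal B1 cells (IgM high, IgD intermediate, CD11b+, n = 2) against splenic B2 cells (IgM intermediate, IgD high, CD11b-, n = 2), all from wild-type C57BL/6 mice. CD8aaT cells (TCRb+CD8a+CD8b-, n = 3) and CD8abT cells (TCRb+CD8a+CD8b+, n = 3) came from RTOC, a culture given by this abbreviation, and were selected with the agonist Smcy at a high dose, written as 10 mM, and a low dose of 100 nM. Lineage and agonist dose are thus one factor in that pair, tissue and lineage are one in the B cell pair, and neither the age of the mice nor the strain behind the culture is stated.

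Tetraspanins are small proteins that cross the membrane 4 times and gather integrins, receptors and signalling enzymes into membrane microdomains. Cd9 binds integrins and immunoglobulin-family partners and is a known surface marker of B1, marginal zone and antibody-secreting B cells. Cd81 is widely expressed and associates with the complement receptor CD21 on B cells, Cd37 is most abundant on mature B cells, Cd53 is found on leukocytes in general, Cd82 acts in adhesion and T cell costimulation, and Cd63 resides in late endosomes, lysosomes and secretory granules.

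Arrays had median intensities of 49.6 to 54.1 in NKT and CD4T, 30.4 to 31.8 in CD8aaT and CD8abT, and 69.3 to 76.2 in B1 and B2. Levels on the log2 scale are therefore compared only within a pair, and across pairs by the percentile of a probe set within its own array. Pan-T cell markers had a median percentile of 90.1 to 95.7 in the T cell groups and of 52.7 and 52.0 in B1 and B2, while pan-B cell markers lay at 94.8 and 98.0 in B1 and B2 and at 50.8 to 74.5 in the T cell groups. Replicate 1 of NKT and CD4T stood apart from replicates 2 and 3 of these groups (SD of the log2 difference over all probe sets 0.383 to 0.634 with replicate 1, against 0.126 and 0.162 between the other two). Control signals differed as well. The 5' probe set of 18S RNA read 675 and 1326 in replicate 1 of NKT and CD4T, against 52.7 to 59.2 in replicates 2 and 3. The 3' over 5' ratio of beta-actin was 5.34 and 7.02, against 3.56 to 3.72. The 18S signal also varied in the other pairs. It was 776 and 877 in replicate 1 of B1 and B2, against 33.4 and 62.6 in replicate 2. In the RTOC arrays it was 66.5 to 273 in CD8aaT and 129 to 857 in CD8abT. Because RNA of sorted populations was measured in bulk, fewer cells with a transcript and less of it per cell cannot be told apart.

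The windows around the RefSeq starts of Cd9 and Cd82, the members whose probe sets passed a test below, are shown for orientation (assembly GRCm38.p6, minus strand, 250 bases before to 50 after the start, 5′ to 3′). Capitals mark the GC box GGGCGG or its reverse complement CCGCCC.

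Cd9 at chr6:125494711-125495010: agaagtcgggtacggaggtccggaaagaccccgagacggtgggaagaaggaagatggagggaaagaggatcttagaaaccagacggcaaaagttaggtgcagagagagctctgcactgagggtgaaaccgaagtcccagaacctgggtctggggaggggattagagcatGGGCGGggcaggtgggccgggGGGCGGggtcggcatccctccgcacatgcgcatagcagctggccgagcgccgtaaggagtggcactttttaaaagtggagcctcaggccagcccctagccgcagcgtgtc

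Cd82 at chr2:93462901-93463200: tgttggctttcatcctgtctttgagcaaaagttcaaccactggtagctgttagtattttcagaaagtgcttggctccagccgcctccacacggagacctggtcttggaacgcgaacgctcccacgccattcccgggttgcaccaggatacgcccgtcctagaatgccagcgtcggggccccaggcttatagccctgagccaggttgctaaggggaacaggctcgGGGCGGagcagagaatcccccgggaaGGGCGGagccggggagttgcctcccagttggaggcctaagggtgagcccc

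Each of these windows held 2 GC boxes, a motif found in 35.7% of 32851 windows of this length. The Cd9 window also held 1 copy of the E box CAGGTG (reverse complement CACCTG), found in 20.2% of windows, and neither held TATAAA or its reverse complement TTTATA (13.6%). The Cd82 window shown is the farthest upstream of 4 in the table, whereas Cd9, Cd37, Cd53, Cd63 and Cd81 have 1 each. GC boxes numbered 3 in the Cd81 window and 1 in that of Cd37, and none was found in those of Cd53 and Cd63. TATAAA was found only in the Cd81 window. A match to these letters is a description of the window and no evidence of binding.

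Cd9 was the only member called by limma in every pair, at an adjusted p under 0.05. It was lower in NKT cells and higher in CD8aaT and B1 cells than in their adaptive partners. The log2 intensities were 6.70, 6.21 and 6.09 in NKT and 7.25, 7.65 and 7.79 in CD4T (replicates 1 to 3 in each). All 3 NKT arrays lay below all 3 CD4T arrays. In the RTOC cells the values were 7.77, 7.10 and 7.24 in CD8aaT and 5.82, 5.47 and 5.68 in CD8abT, and here each innate-like array lay above each adaptive one. In B cells they were 8.51 and 8.76 in B1 against 6.30 and 6.09 in B2, again without overlap. Of all probe sets 12.2%, 11.3% and 32.3% did not overlap in the NKT, CD8 and B cell pairs. The groups of Cd82 99584_at also failed to overlap in each pair, though it was called only in the NKT pair.

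**Figure D1:**
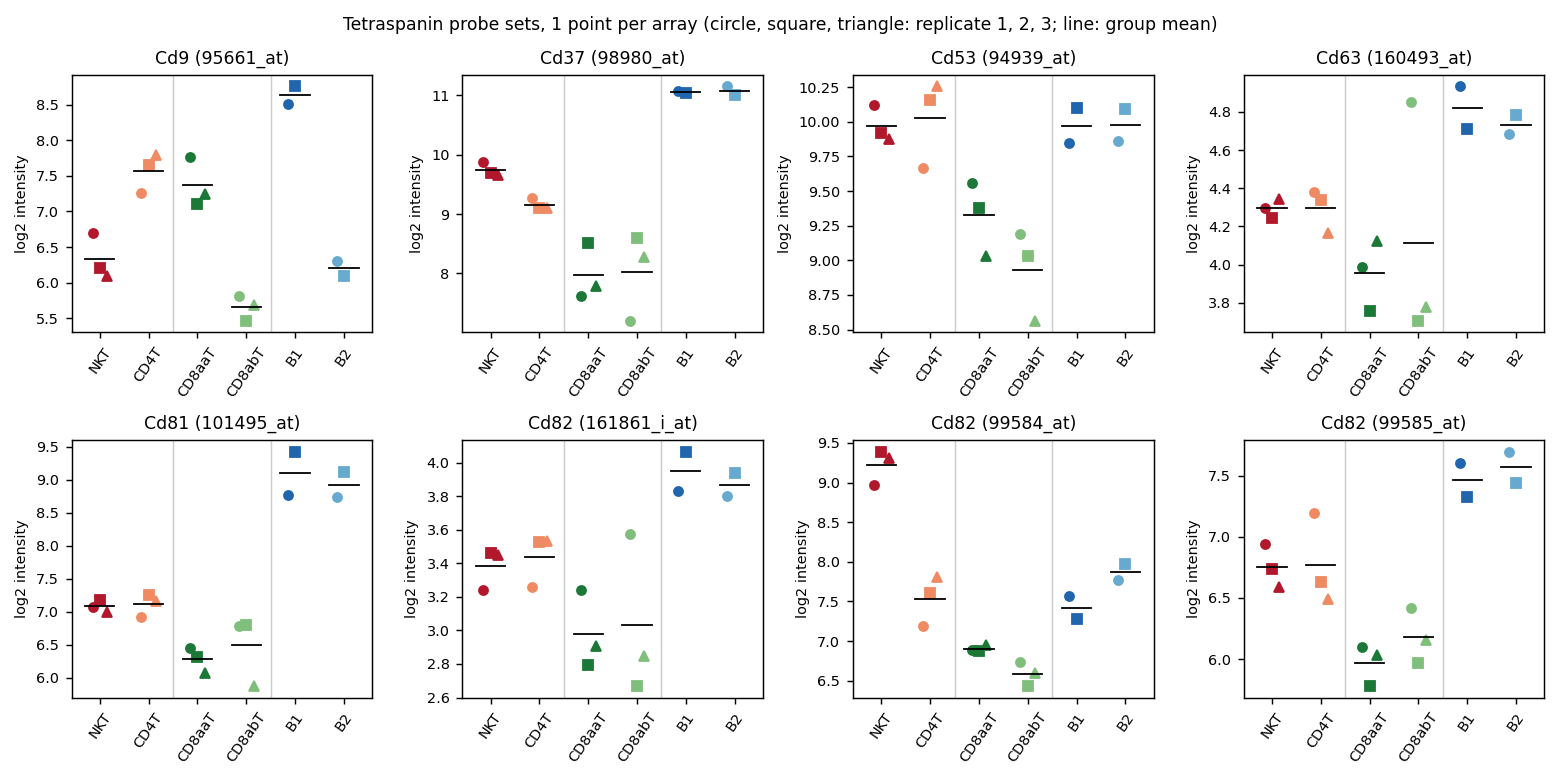
log2 intensity of the 8 tetraspanin probe sets (y axis) in the 6 groups (x axis), with 1 point per array, the symbol showing the replicate number and the line the group mean. Cd9 is low in NKT, CD8abT and B2 and high in CD4T, CD8aaT and B1, and of the 3 Cd82 probe sets 1, 99584_at, is high in NKT.

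The Cd9 difference was -1.23 ± 0.21 in NKT cells (a 2.35-fold decrease, SE of the limma fit, n = 3 against 3, adjusted p = 0.00512). In CD8aaT cells the gene was 3.28-fold higher (1.71 ± 0.21, adjusted p = 0.00282, n = 3 against 3). In B1 cells it was 5.41-fold higher (2.43 ± 0.26, adjusted p = 9.46e-05, n = 2 against 2). Adjusted p-values here and below are limma's, by Benjamini-Hochberg over all 12422 probe sets, with calls made under 0.05. By replicate number the Cd9 difference was -0.55, -1.45 and -1.70 in NKT and CD4T, smallest between the replicate 1 arrays, and 1.95, 1.63 and 1.56 in CD8aaT and CD8abT. When the arrays of a pair were fitted alone, the difference was no longer called in NKT (adjusted p = 0.0569) or in CD8aaT (adjusted p = 0.115). That Cd9 moves in opposite directions was known when these genes were chosen, so the values describe it and are no independent support.

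Set against all probe sets, 2 of 8 members were called in NKT against CD4T, Cd9 lower and 1 Cd82 probe set higher, against a background of 1.63% of all probe sets (upward calls 1.09%, downward 0.539%). In CD8aaT against CD8abT Cd9 was the 1 member called of 8 (0.185% of all probe sets, 0.153% higher and 0.0322% lower), and in B1 against B2 it was again the 1 of 8 (1.14% of all, 0.789% higher and 0.354% lower). With the replicate number as a block the same contrasts called 4.84%, 3.2% and 2.84% of all probe sets. The median difference of the 8 members was -0.02, -0.05 and 0.04 in the 3 pairs, beside -0.03, -0.05 and -0.05 over all probe sets. Cd9 ranked 135th by size of difference in the NKT pair, 14th in the CD8 pair and 28th in the B cell pair. It was 1 of 2 probe sets called in all 3 pairs, and the other has no gene name here. Of the 8 probe sets called in both T cell pairs Cd9 was the 1 with opposite directions. Of the 17 called in both the NKT and B1 comparisons 6 had opposite directions, Cd9 among them. The counts over 2 or 3 pairs depend on the calls, of which the CD8 pair had only 23. The ranks and counts of Cd9 given here restate the differences by which these genes were chosen and are no independent support.

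**Figure D2:**
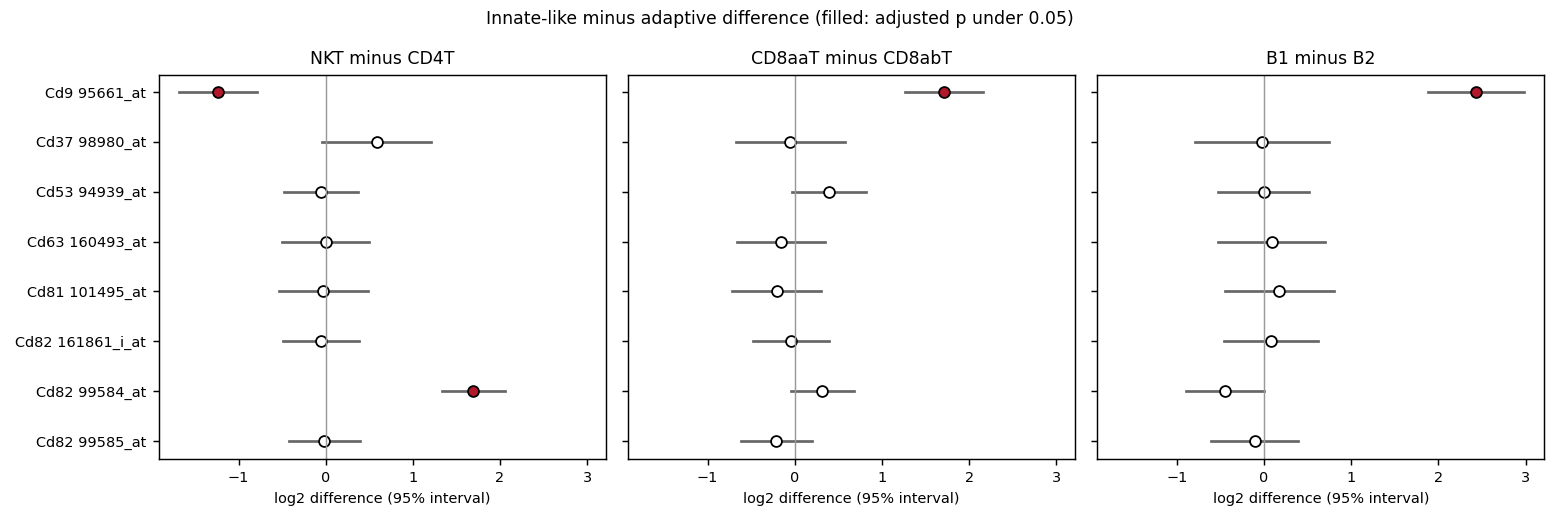
Innate-like minus adaptive log2 difference (x axis) of each tetraspanin probe set (y axis) in the 3 pairs, with 95% intervals of the limma fit and filled points where the adjusted p was under 0.05. Cd9 lies at -1.23, 1.71 and 2.43, Cd82 99584_at at 1.69 in the NKT pair, and the other intervals reach or nearly reach 0.

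The pairs were also set against each other in the same fit, as the difference of 2 within-pair differences. For Cd9 the CD8 pair exceeded the NKT pair by 2.95 ± 0.30 and the B cell pair exceeded the NKT pair by 3.67 ± 0.33. These Cd9 values are given as a description with no test, since its opposite directions belong to the rule by which these genes were chosen. The background of calls was 0.692% and 1.35% of all probe sets in these contrasts, in each of which 2 of 8 members were called, Cd9 and Cd82 99584_at, a count from which nothing is read for Cd9. Between the B cell and CD8 pairs the Cd9 difference was 0.72 ± 0.33 (95% interval 0.01 to 1.43, adjusted p = 1), and limma called 0 of 8 members there (2 at an unadjusted p under 0.05, also 2 with the replicate block, 0.733% of all probe sets called). With the block 3.02%, 4.61% and 2.21% of all probe sets were called in the 3 tests between pairs, taken in this order.

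Signals of other cells and of RNA quality moved with Cd9 in some pairs only. Of 14 macrophage markers Lyz2 (2.29 ± 0.43, adjusted p = 0.0135) and Mpeg1 (1.37 ± 0.22, adjusted p = 0.00495) rose in B1 cells, with a summed intensity of the list of 1579 to 1818 in B1 against 1124 to 1154 in B2 arrays. The other 12 were not called, 4 of the 14 had an unadjusted p under 0.05, and the median of the list was 0.08. Of the uncalled markers Mrc1 (0.52 ± 0.35), Cd68 (0.44 ± 0.16), Adgre1, which encodes F4/80 (0.40 ± 0.18), and Msr1 (0.25 ± 0.27) had the highest values, and the remaining ones lay between -0.19 and 0.09, Csf1r (-0.02 ± 0.17) and Cd14 (-0.06 ± 0.20) among them. In NKT cells, where Cd9 fell, 3 of these 14 rose, Lyz2 (2.08 ± 0.35), Mpeg1 (1.01 ± 0.18) and Csf1r (0.60 ± 0.13). In CD8aaT cells, where Cd9 rose, 0 were called (1 at an unadjusted p under 0.05). There Lyz2 (-0.71 ± 0.35) was called lower with the replicate block, and the median of the list was -0.17. No value in these files is 0. Of 6 platelet and megakaryocyte markers, cells that carry much Cd9, none was called in any pair by limma, with or without the replicate block (0 at an unadjusted p under 0.05 in each), and their summed intensity was 419 to 562 in B1 and 478 to 553 in B2. Of 14 stroma and thymic epithelial markers 0 were called in CD8aaT against CD8abT (2 at an unadjusted p under 0.05, 0 with the block), at summed intensities of 509 to 652 against 590 to 716. In B1 cells 1 of these 14 rose, Epcam (1.17 ± 0.15). The beta-actin control, read as its 3' over its 5' probe set, was 5.15 to 5.80 in CD8aaT and 6.57 to 11.6 in CD8abT arrays, without overlap. The same ratio of the Gapdh control was 7.37 to 20.9 in CD8aaT and 9.47 to 30.4 in CD8abT, with overlap. With the beta-actin ratio as a covariate the Cd9 difference was 1.63, given as a description. In that fit the slope of the ratio comes from its spread within the 6 groups. Since the ratio does not overlap between CD8aaT and CD8abT, the adjusted value assumes that this slope also holds between them. The part of the other cells' markers in the Cd9 differences was not tested.

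By percentile within the array, Cd9 stood highest in B1 (89.1 to 90.0) and CD8aaT (84.5 to 91.6), which overlapped. CD4T followed at 79.4 to 83.6, below both and without overlap. CD8abT (60.0 to 68.5) and NKT (57.9 to 68.3) overlapped each other, and B2 was lowest at 47.3 to 51.1. Innate-like groups thus held both the highest and the next to lowest place for Cd9.

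The named probe set whose pattern was most like that of Cd9 belonged to Itga4, the integrin alpha 4 chain, with a Pearson correlation of 0.91 over 16 arrays, each taken as log2 minus the mean of its pair. The next were Plp2 (0.89), Casp1 (0.88), Anxa2 (0.86) and Pts (0.85). These points share arrays and fall into an innate-like and an adaptive set in each pair, so the values describe likeness only. The Itga4 probe set concerned, 102655_at, is the middle of 3 by brightness, with differences of -0.59 ± 0.14, 0.48 ± 0.14 and 0.68 ± 0.18 in the NKT, CD8 and B cell pairs, none of them called (adjusted p = 0.0658, 0.482 and 0.122). The brightest, 95292_at, was -1.38 ± 0.36, 1.18 ± 0.36 and 0.53 ± 0.44, also not called (adjusted p = 0.0987, 0.496 and 1), and its correlation with Cd9 was 0.70. The third, 102656_at, was called lower in NKT cells (-0.64 ± 0.13, adjusted p = 0.0146) and correlated at 0.53. With the replicate number as a block all 3 were called lower in NKT cells (adjusted p = 0.0408, 0.0178 and 0.00743).

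**Figure D3:**
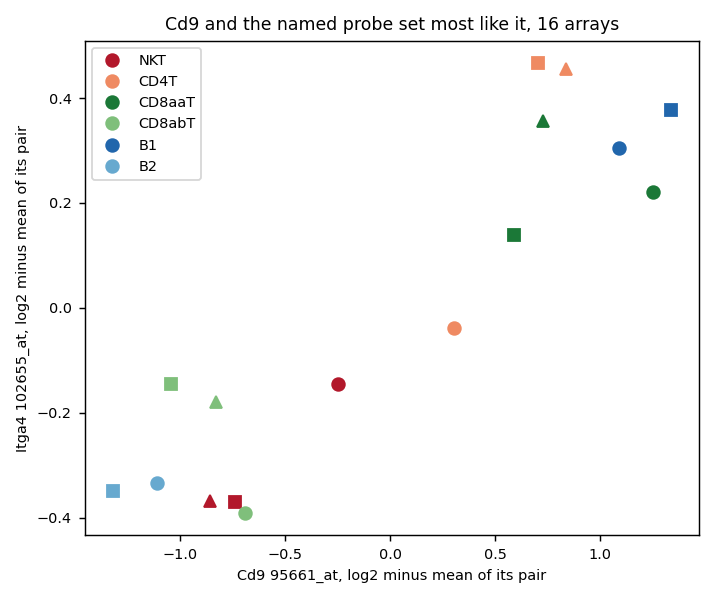
Cd9 (x axis) and Itga4 102655_at (y axis) on the 16 arrays, each as log2 intensity minus the mean of the 2 group means of its pair, coloured by group with the symbol showing the replicate number. CD4T, CD8aaT and B1 arrays lie to the right and NKT, CD8abT and B2 arrays to the left, with replicate 1 of CD4T and of NKT nearest the centre.

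Cd82 gave 3 readings that differed between probe sets. On its brightest probe set, 99584_at, log2 intensities were 8.97, 9.39 and 9.31 in NKT against 7.19, 7.60 and 7.81 in CD4T. All NKT arrays lay more than 1 log2 unit above all CD4T arrays. The gene read 3.23-fold higher on this probe set (1.69 ± 0.17, adjusted p = 4.43e-05, n = 3 against 3), a difference called in each of 25 alternative settings, between 1.52 and 1.83. On 99585_at, a moderately bright probe set of the same gene, NKT (6.59 to 6.94) and CD4T arrays (6.49 to 7.19) overlapped, and the difference was -0.02 ± 0.19 (95% interval -0.42 to 0.39, adjusted p = 1). The third, 161861_i_at, was among the dimmest of every array, at percentiles of 0.302 to 13.8, and its difference in NKT was -0.06 ± 0.20. The rise of Cd82 in NKT cells therefore rests on 1 of 3 probe sets, and which transcripts each probe set reads was not analysed here.

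In the other pairs Cd82 99584_at was not called. It read 6.89, 6.88 and 6.95 in CD8aaT and 6.74, 6.44 and 6.60 in CD8abT, without overlap, at a difference of 0.32 ± 0.17 (adjusted p = 0.875). In B1 it read 7.57 and 7.28, below the 7.77 and 7.97 of B2, at -0.45 ± 0.21 (adjusted p = 1). Groups failed to overlap for 3, 2 and 2 of the 8 members in the NKT, CD8 and B cell pairs, where 12.2%, 11.3% and 32.3% of all probe sets did so. The CD8 pair minus the NKT pair gave -1.38 ± 0.24 (adjusted p = 0.015), a call lost without NKT replicate 2 (adjusted p = 0.0598) or NKT replicate 3 (adjusted p = 0.0562). The B cell pair minus the NKT pair gave -2.14 ± 0.27 (adjusted p = 0.000503). By percentile NKT stood alone at 94.7 to 95.9. CD8aaT (82.2 to 83.5), CD4T (78.5 to 83.9), B2 (79.3 to 82.3) and CD8abT (76.6 to 82.8) overlapped in turn, and B1 was lowest at 71.8 to 76.6, its highest array just touching the range of CD8abT.

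The probe sets most like Cd82 99584_at over the 16 arrays were those of the chemokine receptor Ccr2 (correlation 0.96), interferon gamma, Ifng (0.95), and the T cell receptor segment Trgv1 (0.94), whose differences in NKT were 2.64, 2.62 and 3.95. Some markers of other cells were also higher in NKT arrays. Of 14 macrophage markers 3 rose, Lyz2 (2.08 ± 0.35), Mpeg1 (1.01 ± 0.18) and Csf1r (0.60 ± 0.13, adjusted p = 0.0394), with a summed intensity of 891 to 1084 in NKT against 621 to 883 in CD4T. Of 14 pan-B cell markers 3 rose, the inhibitory receptor Cd72 (1.90 ± 0.38) and, of MHC class II, H2-Ab1 (1.17 ± 0.27, adjusted p = 0.0441) and H2-Aa (1.42 ± 0.28), with summed intensities of 2095 to 3867 against 1375 to 2549. The uncalled macrophage markers lay between -0.15 (C1qb) and 0.34 (C1qa), and the median of the whole list was 0.15. Uncalled pan-B cell markers lay between -0.08 (Pax5) and 0.41 (Cd74), and the median of that list was 0.24. The part of these markers in the Cd82 reading was not tested.

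Cd37 stood highest in B cells, and within T cells its percentile was 94.5 to 97.7 in NKT and CD4T and 88.0 to 95.6 in CD8aaT and CD8abT. It read 11.08 and 11.03 in B1 and 11.15 and 11.00 in B2, between the 98.7th and 99.0th percentile of each array. No T cell array reached that range, the highest being an NKT array at 97.7. In NKT it read 9.88, 9.69 and 9.65, above the 9.27, 9.10 and 9.10 of CD4T, without overlap. The difference of 0.59 ± 0.29 was not called (adjusted p = 0.922), whereas with the replicate number as a block it was, narrowly (adjusted p = 0.0462). The differences by number were 0.61, 0.60 and 0.55. In the RTOC cells Cd37 varied widely between replicates (7.62, 8.51 and 7.78 in CD8aaT, 7.20, 8.60 and 8.28 in CD8abT) and the difference was -0.05 ± 0.29. In B1 against B2 it was -0.02 ± 0.36. Most like it were Araf (0.94), the inhibitor of NF-kappaB Nfkbia (0.94) and Tor2a (0.91).

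**Figure D4:**
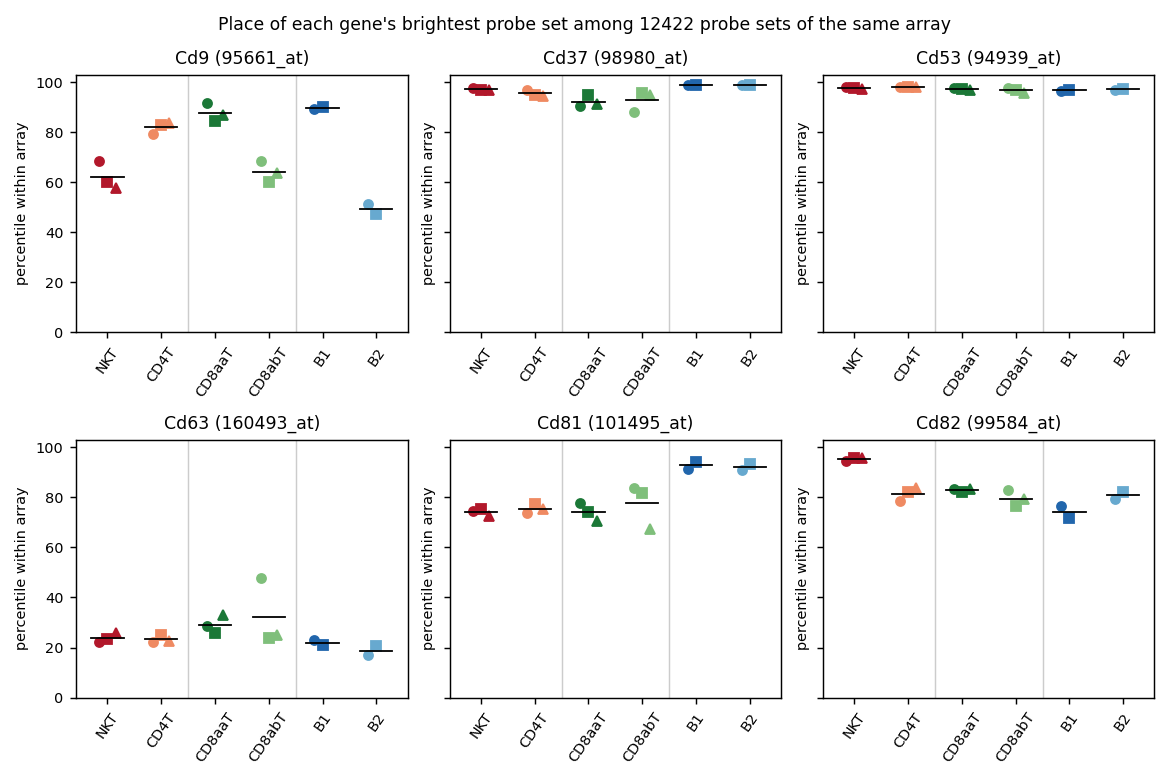
Percentile of the brightest probe set of each tetraspanin among the 12422 probe sets of the same array (y axis, 0 to 100) in the 6 groups (x axis), 1 point per array with group means as lines. Cd37 and Cd81 are highest in B1 and B2, Cd53 is above 95 throughout, Cd63 lies below 50 on every array, and Cd9 spans 47.3 to 91.6.

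Cd81 separated B cells from T cells by percentile but did not separate the members of a pair. It read 8.77 and 9.43 in B1 and 8.73 and 9.11 in B2, at percentiles of 90.8 to 94.3, above all 12 T cell arrays (67.4 to 83.6). Within the T cell groups the percentiles overlapped from CD8abT through CD4T and CD8aaT to NKT. The differences were -0.03 ± 0.24 in NKT, -0.21 ± 0.24 in CD8aaT and 0.18 ± 0.29 in B1 cells. The 95% intervals, -0.54 to 0.48, -0.72 to 0.30 and -0.45 to 0.80, leave room for differences of up to 0.80. CD8abT replicate 3 read 5.88, below replicates 1 and 2 of its group (6.79 and 6.81). Most like it were U2af2 (0.90), G3bp1 (0.84) and Brd2 (0.83).

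Cd53 was bright in every group. Its percentile lay between 95.7 and 98.2 on all 16 arrays, and each group overlapped its neighbour in the order from CD4T (highest) through NKT, CD8aaT, B2 and B1 to CD8abT. In NKT it read 9.87 to 10.12 and in CD4T 9.67 to 10.26, a difference of -0.05 ± 0.20. In CD8aaT it read 9.56, 9.38 and 9.03 against 9.19, 9.03 and 8.57 in CD8abT, higher in each number yet overlapping between groups, at 0.39 ± 0.20 (adjusted p = 0.875). In B1 against B2 the difference was -0.01 ± 0.24. Most like it were Ap1ar (0.92), Atad2b (0.90) and Fxr1 (0.90).

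Cd63 was dim in every group, at percentiles of 16.9 to 47.7, and a level this low does not show whether the gene was expressed. It read 4.24 to 4.35 in NKT and 4.17 to 4.38 in CD4T, a difference of -0.00 ± 0.23. In CD8abT replicate 1 read 4.85 and replicates 2 and 3 read 3.71 and 3.78, so that 1 array set the group's spread, against 3.75 to 4.12 in CD8aaT (-0.16 ± 0.23). B1 (4.93 and 4.71) and B2 (4.68 and 4.78) overlapped (0.09 ± 0.29). Most like it were Clca1, Coprs and Rag2 (all 0.92), a likeness to a dim probe set in which that CD8abT array stood apart.

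The wider tetraspanin family was measured through 14 of 25 listed genes, and limma called none of them in any pair, with or without the replicate block. At an unadjusted p under 0.05 there were 0, 1 and 0 in the NKT, CD8 and B cell pairs. Their differences ran from -0.41 to 0.21 in NKT, from -0.34 to 0.57 in CD8aaT and from -0.29 to 0.41 in B1 cells. The upper end in CD8aaT was Tspan32, a tetraspanin of haematopoietic cells (0.57 ± 0.22, adjusted p = 0.724), and the lower end in NKT was Tspan13 (-0.41 ± 0.20, adjusted p = 0.856). Cd151, a close partner of laminin-binding integrins, was -0.32 ± 0.22, -0.34 ± 0.22 and -0.19 ± 0.27 on the brightest of its 4 probe sets. Medians of the list were -0.10, -0.10 and -0.05.

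Of 27 listed proteins known to associate with tetraspanins 24 were measured. In NKT cells 1 fell, Itga6, the alpha 6 chain of laminin-binding integrins (-1.78 ± 0.18, adjusted p = 4.43e-05), and 0 rose. With the block 3 fell, the brightest Itga4 probe set and Cd5 (-0.95 ± 0.37) being added. In CD8aaT cells 0 of 24 were called (4 at an unadjusted p under 0.05), and with the block Adam10, a protease that tetraspanins bind (0.74 ± 0.38), was called higher and Cd2 (-1.22 ± 0.24), Cd5 (-0.92 ± 0.37) and Cd6 (-0.66 ± 0.18) lower. In B1 cells Itgb1, the beta 1 integrin chain, rose 6.93-fold (2.79 ± 0.26, adjusted p = 3.06e-05), with its other probe set also higher (1.85 ± 0.37, adjusted p = 0.0246). Cr2, the complement receptor CD21 that pairs with CD81 on B cells, fell (-2.06 ± 0.19, adjusted p = 2.99e-05). Its mean percentile was 43.2 in B2 and 1.17 in B1, as low as in the T cell groups (0.84 to 7.12). The size of this fall is therefore limited by the floor of the array. With the block Cd2 (1.25 ± 0.29) was also called higher in B1 cells. The Cd9 partners Igsf8 and Ptgfrn lay between -0.09 and 0.08 in all 3 pairs and were not called. Medians of the list were -0.03, -0.04 and 0.05. Beside these counts, 1.63%, 0.185% and 1.14% of all probe sets were called in the NKT, CD8 and B cell pairs. With the replicate block the shares were 4.84%, 3.2% and 2.84%.

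Among 18 measured genes of endosomes and lysosomes, where Cd63 resides, 1 rose in NKT cells, the protease Ctsd (0.99 ± 0.20, adjusted p = 0.0181), and none fell. With the replicate block 5 rose, Ctsa, Ctsb, Hexa and Scarb2 being added (0.49 to 0.79). In CD8aaT cells 0 were called (2 at an unadjusted p under 0.05), and with the block Lamp2 (0.74 ± 0.25), Ctss (0.85 ± 0.34) and the Cd63-binding adaptor syntenin, Sdcbp (1.03 ± 0.52), were called higher. In B1 cells 0 were called (3 at an unadjusted p under 0.05), and with the block Ctsa (-1.07 ± 0.34) was called lower. Medians of this list were 0.27, 0.04 and 0.07, beside -0.03, -0.05 and -0.05 over all probe sets. The shares of all probe sets called were 1.63%, 0.185% and 1.14% in the 3 pairs, and 4.84%, 3.2% and 2.84% with the block. Among B1 and plasma cell genes, which share Cd9 as a marker, Plscr1 (3.27 ± 0.31) and Ctla4 (1.71 ± 0.37, adjusted p = 0.0348) rose in B1 cells, 2 of 9. The uncalled ones lay between -0.35 (Xbp1) and 0.59 (Jchain), with Spn (-0.16) and Sdc1 (-0.13) also below their B2 level. The median of this list was 0.49 in B1, 0.04 in NKT and 0.15 in CD8aaT cells. In NKT cells, where Cd9 fell, Jchain (0.77 ± 0.13) and Prdm1 (0.94 ± 0.21) rose, 2 of 9 as well. With the replicate block Xbp1 (1.34 ± 0.37) was also called higher there, and Cd5 (-0.95 ± 0.37) and Ctla4 (-0.87 ± 0.30) were called lower. In CD8aaT cells 0 of 9 were called (2 at an unadjusted p under 0.05), and with the block Plscr1 (1.28 ± 0.25) was called higher and Cd5 (-0.92 ± 0.37) lower.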

How the data were processed

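The deposited intensities, 1 per probe set and array, were made by the authors with RMA, per the submitters' processing notes. The RMA version and the set of arrays normalized as one are not stated in the labels. RMA compresses fold changes of dim probe sets. Per the labels' protocols, RNA of about 100000 sorted cells (50000 for RTOC) was extracted with TRIZOL and amplified. Of 12488 probe sets 66 controls were left out of tests. Names came from the platform annotation (10833 probe sets with 1 symbol), and all 8 members matched RefSeq by Entrez number. Gene coordinates of the array were not used here. log2 of the deposited values was fitted with limma 3.58.1 in R 4.3.3, with 6 group means over all 16 arrays, two-sided, and the code was tested on simulated data. The series calls replicates biological without naming animals, so the spread that p-values rest on may be technical, and the number of arrays limits the precision. Members and gene lists were chosen with earlier results of these data known. Named genes were all members, called genes of the lists (markers of other cells up to 6 per list and pair), and the 3 probe sets (5 for Cd9) most like each member. Likeness was taken on arrays centred per pair, so it also takes in differences between replicates. For members that differ little between groups it rests mostly on these, and it is a description for every member. A gene with several probe sets was read on its brightest over all arrays. Genes named beyond this, for example Adgre1, Cd14, Cd68, Mrc1, Msr1, Tspan32 and Cd151, were chosen after their values were seen.

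Replicate numbers were taken to pair the T cell arrays, since deviations from group means of same-numbered arrays correlated at 0.762, 0.654 and 0.669 (NKT, CD4T) and 0.642, 0.601 and 0.664 (CD8aaT, CD8abT). For replicate 3 of NKT and CD4T a different number correlated about as well (0.675). With 2 arrays a group, such correlations cannot show whether B1 and B2 arrays are paired. The replicate block used the number in all 3 pairs, B1 and B2 included. Its B cell results thus assume a pairing that was not shown. Alternatives were the replicate block, quantile or median scaling, an offset of 32, a filter on dim probe sets, the arrays of a contrast alone, another eBayes setting, no replicate 1, the beta-actin ratio as a covariate, and each array left out.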

Additional observations from a re-analysis of the deposited data

Results flagged for a closer look

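The within-pair difference of Cd82 99584_at differed between pairs by a direct test of the 2 differences in limma. The CD8 pair minus the NKT pair and the B cell pair minus the NKT pair gave -1.38 ± 0.24 (adjusted p = 0.015) and -2.14 ± 0.27 (adjusted p = 0.000503). For Cd9 the values were 2.95 ± 0.30 and 3.67 ± 0.33 in the same order, given with no test because its opposite directions were part of the rule that chose these genes. Pairs also differ in tissue or culture, which cannot be told apart from lineage. Groups of 2 or 3 arrays are too small for a test of single outlying arrays.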

How the results depend on the processing

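Values of the member probe sets were recomputed 1188 times, under up to 25 alternatives each, and 1183 stayed called or stayed uncalled, 4 lost a call, 1 gained one and 0 called values reversed. With the arrays of a contrast alone, which leaves fewer arrays to estimate the spread, the members called numbered 1 in NKT against CD4T and 0 in CD8aaT against CD8abT (Cd9 lost in both, at the same differences of -1.23 and 1.71), where 1.21% and 0.0161% of all probe sets were called. With 1 array left out, the members called for the CD8 pair minus the NKT pair ranged from 1 to 2, and Cd82 99584_at was lost without NKT replicate 2 or 3. Leaving out a B1 or B2 array assumes that the lone array varies like the other groups. With the replicate block 3 members were called in NKT against CD4T, Cd37 being added, and the block changed no other member's call. The filter on dim probe sets removed Cd63 and Cd82 161861_i_at. For Cd9, as a description, the CD8 pair minus the NKT pair ranged from 2.24 to 3.17 and the B cell pair minus the NKT pair from 3.00 to 4.24 over the alternatives. After quantile normalization of all arrays the order of groups by level was kept for every member except Cd82 161861_i_at, where CD4T and CD8abT changed places.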
